A study of Homo sapiens with 4 samples.

Results

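The genes of the 11q13 cyclin D1 amplicon are neighbours on the long arm of chromosome 11, and 10 of them were examined here, chosen by name as the well-known genes of this region: MYEOV, CCND1, LTO1 (formerly ORAOV1), FGF19, FGF4, FGF3, ANO1, FADD, PPFIA1 and CTTN. All 10 were found among the 33616 genes of the array table, each represented by its transcript cluster with the highest mean signal. RNA came from SAS, an established human tongue squamous carcinoma cell line grown in medium with 10% fetal bovine serum, and was measured on 4 Clariom D arrays, 2 per group. The overexpression cells (C6orf141 overexpression 1 and 2) had received the full-length C6orf141 sequence in the pLVX-IRES-Neo vector for 48 h and were then selected for 14 days with G418 at 1200 μg/mL. The comparison cells are titled scrambled control 1 and 2. The sources used here do not say which vector or oligonucleotide they carried, whether they were selected, or whether the stable cells were a pool or a single clone. Nor do they say that replicate arrays stem from separate cultures, and p-values here thus cover array-to-array spread that may be technical. The comparison asks whether the genes of this region changed when C6orf141 was overexpressed, and the levels show which of the neighbours gave a signal in SAS cells at all. The copy number of the region was not measured.

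The 11q13 region is often amplified in squamous carcinoma of the mouth and the rest of the head and neck, and the amplified stretch carries several genes at once. Its best known gene is CCND1, which encodes cyclin D1. Cyclin D1 binds the kinases CDK4 and CDK6, and the active complex phosphorylates the retinoblastoma protein, which lets cells pass from G1 into S phase. The neighbours encode proteins of other kinds, among them fibroblast growth factors, a chloride channel, a death receptor adaptor and proteins of the actin cortex. A gene inside an amplified stretch need not be transcribed.

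In SAS cells, 7 of the 10 genes gave a signal above the background level, and the 3 fibroblast growth factor genes FGF19, FGF4 and FGF3 did not. The array table holds no detection calls, so the background level was set at the 95th percentile of the mean log2 signal of 400 olfactory receptor genes, odour sensors with little use outside the nose. It lay at 5.81, exceeded by 48.2% of all genes and 61.5% of protein-coding genes. A stricter mark, 7.54, was the 95th percentile of the array's own negative control rows. In the order of the RefSeq gene table, MYEOV, CCND1 and LTO1 come first, the 3 growth factor genes follow, next to each other among the measured genes, and ANO1, FADD, PPFIA1 and CTTN come last. The genes without a signal therefore stood between genes with one on either side. Probes of different genes respond differently to their RNA, so the log2 signals are read here against the background level only and are not ranked between genes.

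The RefSeq tables (GRCh38.p14) hold a start site sequence for 5 of the 10 genes, from 250 bases before the start to 50 after it. LTO1, FGF3 and ANO1 are shown, because FGF3 is the gene without a signal for which a sequence was at hand, and LTO1 and ANO1 are the nearest genes with a signal on its left and right. The windows are chr11:69675304-69675603 on the minus strand for LTO1, chr11:69819367-69819666 on the minus strand for FGF3 and chr11:69985657-69985956 on the plus strand for ANO1, where the start lies inside the interval that the gene table gives for this gene. Sequences run 5′ to 3′, and capitals mark matches on either strand to the GC box GGGCGG and to CCAAT, which did not overlap each other.
LTO1: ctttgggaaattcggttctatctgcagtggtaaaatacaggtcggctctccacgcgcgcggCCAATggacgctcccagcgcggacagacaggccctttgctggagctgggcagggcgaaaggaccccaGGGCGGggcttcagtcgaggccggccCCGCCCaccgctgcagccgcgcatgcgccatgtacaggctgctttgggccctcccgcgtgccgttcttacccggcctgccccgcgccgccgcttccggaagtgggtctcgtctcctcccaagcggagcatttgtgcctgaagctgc
FGF3: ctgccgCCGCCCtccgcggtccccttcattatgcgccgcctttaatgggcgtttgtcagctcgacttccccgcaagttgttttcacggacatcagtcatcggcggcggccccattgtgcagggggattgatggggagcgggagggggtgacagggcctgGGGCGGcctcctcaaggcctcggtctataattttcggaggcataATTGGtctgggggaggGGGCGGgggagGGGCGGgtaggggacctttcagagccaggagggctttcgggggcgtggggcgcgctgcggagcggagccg
ANO1: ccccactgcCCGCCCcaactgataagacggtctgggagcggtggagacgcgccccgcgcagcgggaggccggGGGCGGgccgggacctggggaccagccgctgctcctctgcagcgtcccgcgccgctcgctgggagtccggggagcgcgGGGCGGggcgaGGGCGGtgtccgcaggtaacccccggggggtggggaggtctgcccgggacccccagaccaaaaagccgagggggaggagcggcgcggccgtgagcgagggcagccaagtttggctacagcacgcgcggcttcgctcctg
The FGF3 window had 4 GC box matches and 1 CCAAT match, 26 CpG dinucleotides and a GC content of 66.7%. LTO1 had 2 GC box matches, 1 CCAAT match, 29 CpG and a GC content of 67%, and ANO1 had 4 GC box matches, no CCAAT match, 36 CpG and 76%. FGF3 thus had as many GC box matches as ANO1 and somewhat fewer CpG than both neighbours, and at most as many CpG were found in 72.1% of all windows. FADD had 36 CpG and PPFIA1 had 42, against a median of 14 over 27305 such windows. The GC box was found in 44.6% of all windows, CCAAT in 35.7% and the TATA box TATAAA, searched on both strands, in 12%. None of the 5 windows held TATAAA. A match is a description of the sequence and not a binding site.

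CCND1 was far above the background level on every array. Control cells had log2 signals of 14.77 and 14.41, a mean of 14.59 ± 0.25 (SD, n = 2), and overexpression cells had 14.74 and 14.99, a mean of 14.86 ± 0.18 (SD, n = 2). Control replicate 2 was the lowest and overexpression replicate 2 the highest, and the groups overlapped, since control replicate 1 lay above overexpression replicate 1. The log2 fold change, overexpression minus control, was 0.27 with a standard error of 0.25 in limma (95% interval −0.30 to 0.84, adjusted p = 1.00, as for every member), or 1.21-fold with an interval from 0.813 to 1.79. The cyclin D1 transcript thus did not pass the test in cells with C6orf141 overexpression, and the interval leaves room for a modest decrease as well as for a rise of nearly that upper bound.

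LTO1 lies next to CCND1 and encodes an adaptor that, with YAE1, brings an iron-sulfur cluster to the ribosome recycling factor ABCE1. Log2 signals of LTO1 were 9.90 and 10.00 in control cells and 10.14 and 9.93 under overexpression. The 4 arrays lay close together and the groups overlapped, with a log2 fold change of 0.08 (standard error 0.23, 95% interval −0.44 to 0.61).

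MYEOV, named for its overexpression in myeloma and still of poorly known function, was the gene that varied most between arrays. Control cells had log2 signals of 12.39 and 10.51, and overexpression cells had 11.71 and 11.84. Both overexpression arrays thus lay between the control arrays. The control arrays differed by 1.88 on the log2 scale, or 3.68-fold, while the overexpression arrays differed by 0.13. Among the 16214 genes above the background level, 11 had a larger difference between the control arrays, or 0.0678%. The log2 fold change was 0.33 with a standard error of 0.53 (95% interval −0.89 to 1.54). This value rested on which control array was used. Without control replicate 1 it was 1.26 and passed an unadjusted p below 0.05 but not an adjusted one, and without control replicate 2 it was −0.61 and passed neither.

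The secreted ligands FGF19, FGF4 and FGF3 lay below the background level on each of the 4 arrays. FGF19, which acts as a hormone through FGFR4 and the coreceptor KLB, had log2 signals of 4.51 and 4.09 in control cells and 4.17 and 4.31 under overexpression. FGF4 had 4.38 and 4.33 against 4.01 and 4.54. FGF3 had 3.67 and 3.83 against 3.42 and 3.83. Means over the 4 arrays were 4.27, 4.31 and 3.69, and the groups overlapped for each of these genes. Their differences, −0.06, −0.08 and −0.12, are differences of background signal and get no direction of expression.

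ANO1 encodes a calcium-activated chloride channel (TMEM16A) of the plasma membrane. ANO1 had log2 signals of 13.33 and 13.11 in control cells and 13.24 and 13.27 under overexpression. Both overexpression arrays lay between the control arrays, and the log2 fold change was 0.04 (standard error 0.23, 95% interval −0.49 to 0.56). Of the 10 genes, ANO1 had the smallest difference between the groups.

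FADD encodes the adaptor that links death receptors such as FAS to caspase-8. Its log2 signal was 8.20 and 7.63 in control cells and 7.64 and 7.73 under overexpression. Control replicate 1 stood above the other arrays, which lay within a narrow range, and the log2 fold change of −0.23 (standard error 0.26, 95% interval −0.84 to 0.38) became 0.06 without that array. All 4 values were above the stricter mark of 7.54, which was taken over array means. Taken on each array by itself, the 95th percentile of the negative control rows was 7.71, 7.72, 7.66 and 7.64 in the same order, and FADD exceeded it on 2 of 4 arrays.

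PPFIA1 and CTTN encode proteins of the cell cortex. PPFIA1 is liprin-alpha-1, which binds LAR-type receptor phosphatases and takes part in adhesion and cell spreading. Its log2 signal was 7.84 and 7.67 in control cells and 7.66 and 7.73 under overexpression, with a difference of −0.06 (standard error 0.22), and it exceeded the negative control percentile of the array itself on 3 of 4 arrays. CTTN encodes cortactin, which stabilizes actin branches made by the Arp2/3 complex and is found in invadopodia. Its log2 signal was 11.36 and 11.67 in control cells and 11.46 and 11.38 under overexpression. Control replicate 2 was the highest array for CTTN, and the difference was −0.10 (standard error 0.23, 95% interval −0.64 to 0.45).

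**Figure D1:**
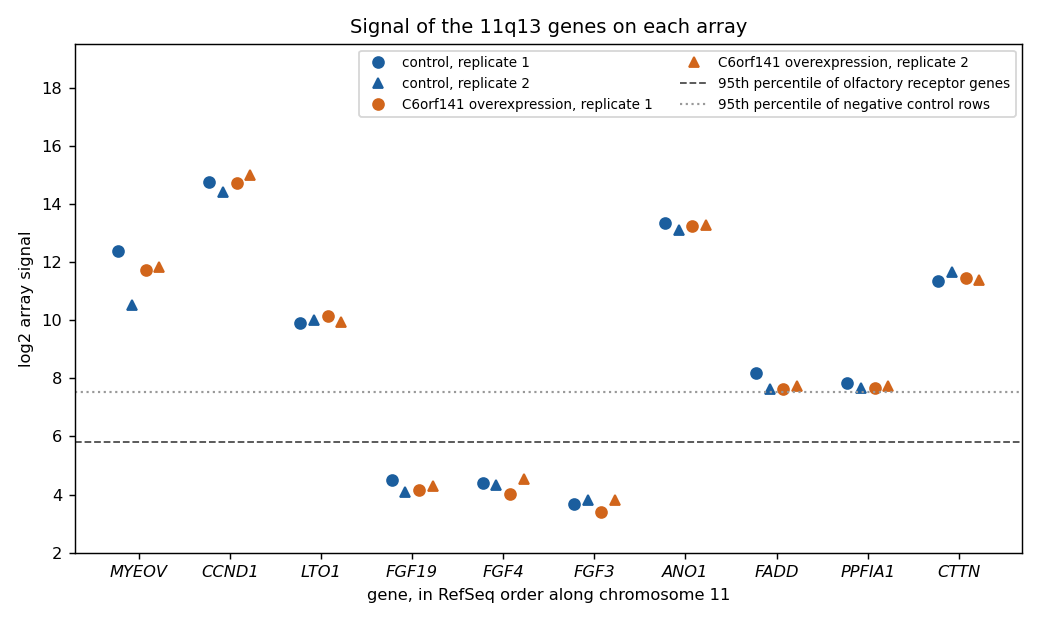
Log2 array signal (vertical axis) of the 10 genes in RefSeq order along chromosome 11 (horizontal axis), 1 point per array, with circles for replicate 1, triangles for replicate 2, blue for control and orange for C6orf141 overexpression; dashed and dotted lines mark the olfactory receptor level of 5.81 and the negative control level of 7.54. FGF19, FGF4 and FGF3 lie below both lines on every array, FADD and PPFIA1 lie near the dotted line, and MYEOV shows the widest gap, 12.39 against 10.51 on the control arrays.

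None of the 10 genes, each by its row with the highest mean, passed the test for a change under C6orf141 overexpression. Limma with Benjamini-Hochberg adjustment over all genes gave 0 members at an adjusted p below 0.05, where 0.0% of all genes passed. At an unadjusted p below 0.05 it gave 0 higher and 0 lower members, against 1.05% and 1.07% of all genes and 0.426% and 0.481%, together 0.907%, of genes with a signal above background. By the methods' t-test on the same values there were also 0 members at an unadjusted p below 0.05, against 4.1% of all genes. In no member were the groups separated, whereas they were in 29.4% of all genes and 27.7% of genes above the background level. Of the 7 genes above the background level, 4 had a positive and 3 a negative difference. The median log2 fold change was −0.06 over the 10 members and 0.04 over those 7, beside medians of −0.00045 over all genes and −0.0040 over genes above the background level.

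The precision of this comparison was low, because each group had 2 arrays and limma's prior standard deviation, shared by all rows, was 0.255 on the log2 scale. Standard errors of the members ran from 0.22 to 0.26, apart from MYEOV. The smallest difference that limma called at an unadjusted p below 0.05 over all rows was 0.51, or 1.42-fold, and the largest member difference was 0.33. Leaving out MYEOV, the 95% intervals of the genes with a signal reached from 0.560-fold to 1.79-fold. An exact permutation test of 2 arrays against 2 could not have gone below p = 0.333.

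**Figure D2:**
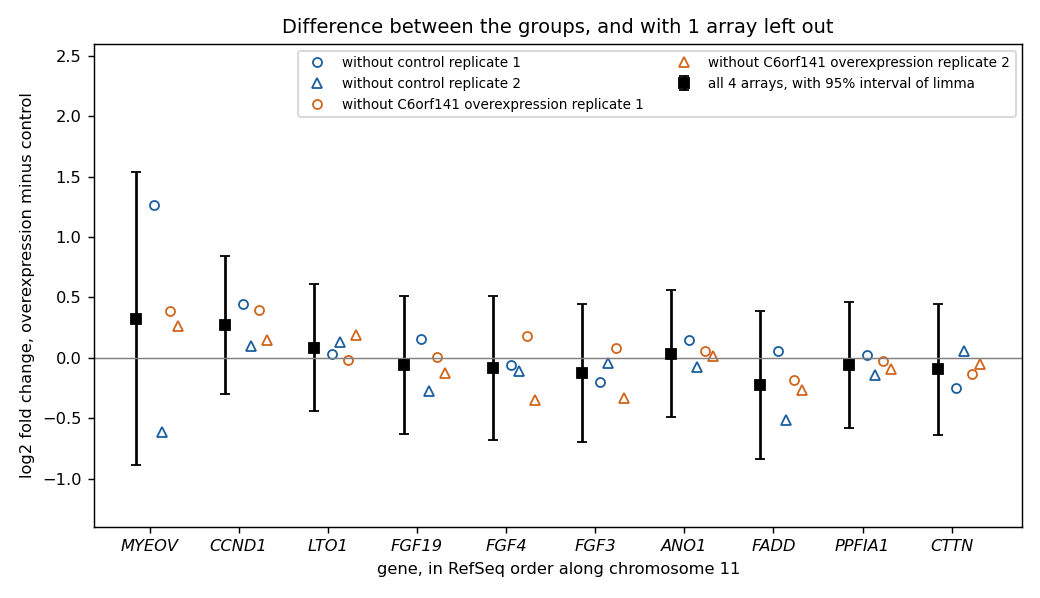
Log2 fold change, C6orf141 overexpression minus control (vertical axis), of the 10 genes in RefSeq order along chromosome 11 (horizontal axis), with black squares and 95% limma intervals for all 4 arrays and open symbols for the value with 1 array left out. All intervals include 0, and MYEOV moves from −0.61 without control replicate 2 to 1.26 without control replicate 1.

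The control arrays differed from each other by more than the overexpression arrays did for 6 of the 7 genes with a signal, and for 66.2% of all genes above the background level. Control replicate 2 was the highest or the lowest of the 4 arrays for 5 of the 7, the lowest for MYEOV, CCND1, ANO1 and FADD and the highest for CTTN. This was so for 64.5% of genes above the background level and 57.7% of all genes, a share near that of the members. A difference of over 2-fold between control arrays was seen in MYEOV alone of the 7, against 2.73% of genes above the background level and 2.47% of all genes. Between overexpression arrays no member differed that much, against 0.265% and 0.934%. The median of all rows lay between 4.71 and 4.77 on every array. The part of the array difference in these values was not tested.

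MYEOV and LTO1 each have a second transcript cluster on the array, which makes 12 rows for the 10 genes. The other MYEOV row had log2 signals of 8.78 and 8.46 in control cells and 8.11 and 7.95 under overexpression. Here both overexpression arrays were below both control arrays, and control replicate 2 was not apart. The log2 fold change of this row was −0.59 (standard error 0.24, 95% interval −1.14 to −0.043, unadjusted p = 0.0378 in limma), the only one of the 12 rows to pass that threshold, where 4.04% of all rows did. The brighter MYEOV row had the opposite sign, 0.33, so the data give no direction for MYEOV. The mean of both rows gave −0.13. The other LTO1 row had 8.96 and 9.43 in control cells and 9.09 and 8.88 under overexpression. Its difference was −0.21, against 0.08 in the brighter row, and neither passed.

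**Figure D3:**
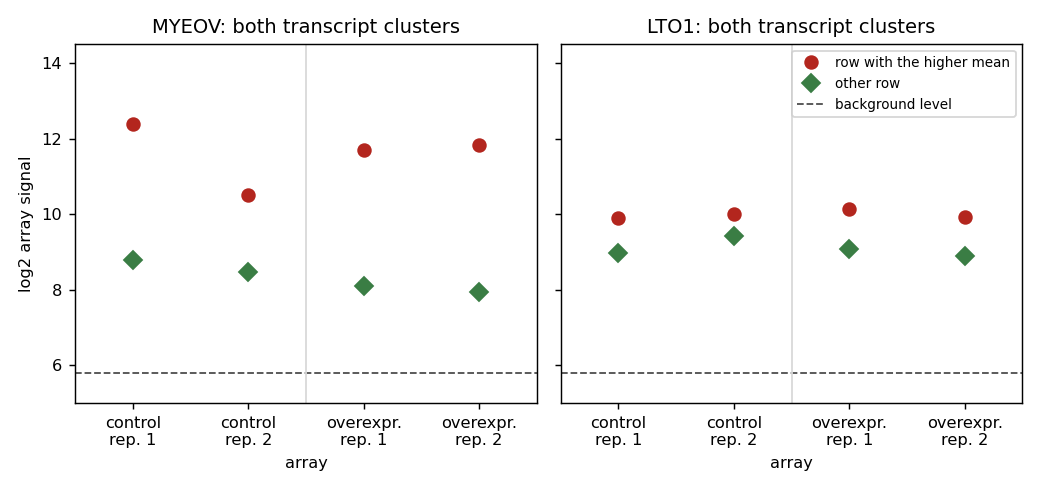
Log2 array signal (vertical axis) on each of the 4 arrays (horizontal axis) for both transcript clusters of MYEOV (left) and LTO1 (right), with red circles for the row with the higher mean, green diamonds for the other row and a dashed line at the background level of 5.81. The brighter MYEOV row drops to 10.51 on control replicate 2, while the other row goes from 8.78 and 8.46 in control cells to 8.11 and 7.95 under overexpression.

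The immediate surroundings were read in the order of the RefSeq gene table. Between MYEOV and CTTN, 5 further genes were measured and 3 were above the background level, the pseudogenes IFITM9P and RNU6-1175P and the microRNA gene MIR548K. The non-coding genes LINC01488 and LINC02584 were not. IFITM9P had a mean log2 signal of 12.78 and a difference of 0.11. MIR548K had a mean of 6.54, below the negative control mark of 7.54, and a difference of 0.38. RNU6-1175P had log2 signals of 10.39 and 10.91 in control cells and 10.39 and 9.63 under overexpression, a difference of −0.64 (standard error 0.32). Near-identical copies of a pseudogene can share probes, which makes these values uncertain.

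Of the 16 protein-coding genes on the sides of the region, 8 on each, 15 were measured and 9 were above the background level. Before MYEOV these were CPT1A, the carnitine palmitoyltransferase that brings fatty acids into mitochondria, MRPL21, a mitochondrial ribosomal protein, IGHMBP2, a helicase, and TPCN2, a cation channel of lysosomes. After CTTN they were SHANK2, a scaffold protein of synapses, DHCR7, the enzyme of the last step of cholesterol synthesis, NADSYN1, an NAD synthetase, and the keratin-associated KRTAP5-7 and KRTAP5-11. The array thus gave a signal on both sides of the region, and the genes without one were TESMIN, MRGPRD, MRGPRF, KRTAP5-8, KRTAP5-9 and KRTAP5-10. The share of 9 of 15 lay near the 61.5% of all protein-coding genes above the background level. TPCN2, with a mean of 7.13, KRTAP5-7 and KRTAP5-11 lay below the negative control mark. KRTAP5-7 was also below the background level on overexpression replicate 1, at 5.54. CPT1A had a mean log2 signal of 9.01 and a difference of −0.004. For MRPL21 they were 10.47 and −0.08, and for IGHMBP2 8.05 and 0.14. On the other side SHANK2 had a mean log2 signal of 7.92 and a difference of 0.20. For NADSYN1 they were 9.16 and 0.26, for KRTAP5-7 6.08 and −0.21, and for KRTAP5-11 6.51 and 0.05. TPCN2 had log2 signals of 7.10 and 6.67 in control cells and 7.22 and 7.52 under overexpression. Its groups were separated, with a difference of 0.49 (standard error 0.26, 95% interval −0.11 to 1.08). DHCR7 had 15.14 and 14.92 against 15.24 and 15.18, also separated, with a difference of 0.18 (standard error 0.23). The groups of SHANK2 and NADSYN1, and of MRGPRF below the background level, were separated too. Separation was seen in 29.4% of all genes and 27.7% of genes above the background level. None of the 20 measured neighbours passed an unadjusted p below 0.05, and their median difference was −0.0082.

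**Figure D4:**
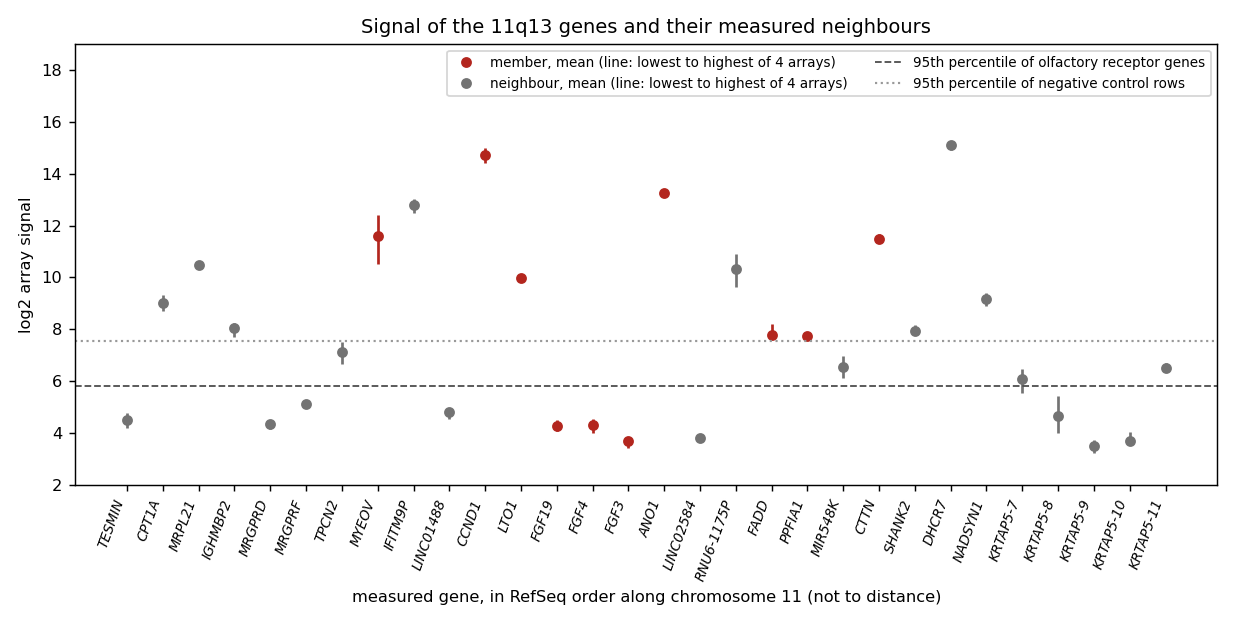
Mean log2 array signal over the 4 arrays (vertical axis), with lines from the lowest to the highest array, for the 10 members (red) and 20 measured neighbours (grey) in RefSeq order along chromosome 11 (horizontal axis, not to distance); dashed and dotted lines mark the levels of 5.81 and 7.54. FGF19, FGF4 and FGF3 form a run of adjacent measured genes below the background level between LTO1 and ANO1, and 12 of the 20 neighbours lie above it.

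The proteins that work with the products of these genes were followed as lists. None of the lists held a gene that passed an unadjusted p below 0.05 in limma, where 2.12% of all genes did. The lists were not counted by the methods' t-test, which uses the spread of each gene alone. Of the 18 measured cyclin D partners 14 were above the background level, beside 61.5% of all protein-coding genes. The median log2 fold change was 0.09 over the list and 0.03 over those 14. CDK4, the kinase bound by cyclin D1, had log2 signals of 14.12 and 13.77 in control cells and 14.09 and 14.12 under overexpression. CCND3, which encodes cyclin D3, had 13.73 and 13.58 against 14.07 and 14.12. Its groups were separated, with a difference of 0.44 (95% interval −0.078 to 0.96), and CCND2, which encodes cyclin D2, had 17.29 and 16.88 against 17.17 and 17.16. All D-type cyclin genes thus gave a signal in SAS cells.

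Of 9 measured FGF receptors and cofactors 5 were above the background level, near the share of 61.5% of all protein-coding genes. Among the 5, FGFR2 had log2 signals of 10.96 and 11.11 in control cells and 10.90 and 11.07 under overexpression. FGFR4, also among them, had 7.29 and 7.42 against 7.20 and 7.67. The receptors FGFR1 and FGFR3, with means of 3.54 and 2.99, were not above the background level. The FGFR4 mean of 7.40 and the GPC1 mean of 5.89 were below the negative control mark of 7.54. FRS3, an adaptor of FGF receptors, had 7.91 and 7.79 in control cells and 7.53 and 7.45 under overexpression. Its groups were separated, but the difference of −0.36 did not pass (standard error 0.22). KLB, which FGF19 needs beside its receptor, had a mean of 4.10 and was not above the background level. SDC1, a heparan sulfate proteoglycan that binds such ligands, had 12.00 and 11.68 against 12.05 and 12.43, a difference of 0.40 (standard error 0.25). The list had a median difference of −0.05. Of 17 other measured FGF genes 5 were above the background level, a lower share than that 61.5%. Among them were FGF2 with a mean of 8.98, FGF9 with 7.57 and FGF7 with 7.21, of which FGF7 was below the negative control mark.

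Most partners of the other members were above the background level, beside 61.5% of all protein-coding genes. The liprin and anoctamin counts below lay near that share. In the FADD and death receptor list 8 of 9 measured genes were above the background level, with a median difference of 0.05. FAS had log2 signals of 11.61 and 11.57 in control cells and 11.46 and 11.22 under overexpression, a difference of −0.25 (standard error 0.23), and CASP8 had −0.17 (standard error 0.24). TRADD, an adaptor of TNF receptor 1, had 0.37 (standard error 0.30), with overexpression replicate 2 above the other arrays. The TRADD mean of 6.43 and the CASP10 mean of 7.28 were below the negative control mark. Of 15 measured cortactin partners 14 were above the background level. Their median difference was 0.000050, and ACTR3, a subunit of the Arp2/3 complex, had a mean log2 signal of 16.70 with a difference of 0.000050. The kinase SRC, which phosphorylates cortactin, had 13.02 and 11.84 in control cells and 12.98 and 13.04 under overexpression. As for MYEOV, control replicate 2 was low, and the difference of 0.58 did not pass (standard error 0.37).

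Of 10 liprin family and LAR phosphatase genes 7 were above the background level, with a median difference of −0.09. Groups were separated in 7 of the 10, in both directions, against 29.4% of all genes. Other lists varied, with 3 of 6 genes of the LTO1 list and 1 of 15 cortactin partners separated. PPFIBP1, which encodes liprin-beta-1, had log2 signals of 13.45 and 13.68 in control cells and 13.41 and 13.34 under overexpression, a difference of −0.19 (standard error 0.23). Of the other alpha liprins, PPFIA4 had a mean of 6.32, above the background level but below the negative control mark. PPFIA2 and PPFIA3 had means of 4.41 and 3.57 and were not above the background level. Of 9 other anoctamin genes 5 were above the background level, with a median difference of −0.08 over the list. ANO6, a lipid scramblase, had a mean of 14.12, while ANO7 and ANO9 had 6.71 and 7.28, below the negative control mark. All 6 genes of the LTO1 list were above the background level, with a median difference of 0.11. CIAO3 had a mean of 6.88, below the negative control mark. YAE1, the partner of LTO1, had 10.80 and 10.81 in control cells and 10.54 and 10.54 under overexpression. The YAE1 arrays of each group were nearly equal (SD 0.0074 and 0.0015), but the difference of −0.26 did not pass in limma (standard error 0.22). That standard error also draws on the spread shared by all rows. ABCE1 had a difference of −0.15 (standard error 0.24). Other genes of the list had positive differences. MMS19, which helps to bring iron-sulfur clusters to their target proteins, had 11.72 and 11.04 in control cells and 11.80 and 11.88 under overexpression, separated groups with a difference of 0.46 (standard error 0.28). CIAO1, of the same pathway, had 12.24 and 12.25 against 12.44 and 12.47, separated with a difference of 0.21 (standard error 0.22).

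Over the 4 arrays, the genes above the background level with a pattern most like that of CCND1 were ZNF618, C19orf84 and DUSP2. Likeness was the root mean square difference of the log2 signals, after the array median and the mean of each gene were taken off, and it was 0.0139, 0.0146 and 0.0149. Of 16213 genes compared, 121 were within 0.05 of CCND1, so with 4 arrays such a pattern singles out no gene.

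The C6orf141 transcript itself, in the labelled overexpression cells, had log2 signals of 11.36 and 12.04 against 8.57 and 7.92 in control cells, 10.97-fold higher (adjusted p = 0.215 in limma). All 6 measured squamous epithelial markers (KRT5, KRT14, CDH1, DSP, EGFR and SFN) were above the background level, with mean log2 signals of the list from 13.17 to 13.53 per array. KRT14 had a mean of 7.29, below the negative control mark, and the other markers of this list had means from 14.10 to 16.30. Endothelial markers were above the background level in 0 of 4 genes and fibroblast markers in 2 of 5 (COL1A1 and COL1A2). Leukocyte markers were above it in 2 of 5 (CD68 and CD3E, with PTPRC at a mean of 5.25) and muscle markers in 1 of 3 (ACTA1). COL1A2 and CD3E had means of 6.93 and 5.87, below the negative control mark. CD3E was below the background level on control replicate 1, at 5.41. In bulk RNA, fewer cells with a transcript and less of it per cell cannot be told apart.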

How the data were processed

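The authors prepared total RNA of SAS cells with the WT PLUS reagent, hybridized it to human Clariom D arrays and deposited 1 gene-level log2 value per transcript cluster and array, which the labels credit to Expression Console. Differential expression was called in Partek, with a threshold of 0.05 on p. How rows were summarized and normalized, and on which annotation and build, are details not given in the sources used here. Precision is limited by the number of arrays.

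Deposited log2 values, from 1.62 to 19.27, entered the tests without rescaling. Of 138745 rows, 2995 array controls were left out, and 135750 were fitted. By the platform annotation 36176 rows carry a single symbol and 1119 carry several, and 98455 are unnamed here. The row with the highest mean represented a gene, which left 33616 genes. Gene order came from the RefSeq gene table (GRCh38.p14), and 25516 rows matched it by gene number. Groups were compared by a two-sided moderated test (lmFit, eBayes; limma 3.58.1, R 4.3.3), and p-values were adjusted over the genes by the Benjamini-Hochberg method with a threshold of 0.05. The model was tested on simulated data. No source names the test run in Partek, and Student's test, listed there for other data, stands in as the methods' t-test. Members and lists were chosen with earlier results of these data known. Named were all members, all their rows, the measured neighbours, marker genes and the 3 genes most like CCND1. From each partner list came genes from among the 4 with the smallest p and the 4 with the highest mean. Some partner genes between the background level and the negative control mark were named as well. Some members of the lists are not analysed here. Alternatives tried were centring each array on its median, quantile normalization, limma's robust trended prior, the methods' t-test, only genes above the background level, averaging a gene's rows, the replicate number as a block, other background levels and leaving out each array.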

Additional observations from a re-analysis of the deposited data

How the results depend on the processing

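The count of 0 members held at an adjusted p under every alternative for which it was run. In the main setting 0 of all genes passed, and C6orf141 itself did not, so this count says little about the members. At an unadjusted p it was 1, MYEOV, without control replicate 1, so it ranged from 0 to 1 with an array left out, and 0 under the other alternatives for which the count was run. It was not run for the other row of a gene, where MYEOV passed (unadjusted p = 0.0378 in limma). The count of 7 members above the background level ranged from 5 to 7: with the level at the 99th percentile of the olfactory receptor genes (8.42) FADD and PPFIA1 were not above it, and under the other alternatives the same 7 genes were. At an unadjusted p below 0.05 in limma, 69 higher and 78 lower genes passed among those above the background level, together 0.907%. Over all genes the counts were 352 higher and 359 lower, together 2.12%, and became 663 and 714 with the methods' t-test. With 1 array left out they ranged from 210 to 931 and from 246 to 677. With the replicate block, 301 and 327 genes and 0 members passed, and no call on a member changed. The labels do not say that the numbers pair the arrays. Arrays with the same number showed no shared deviation (r = −0.112 across all genes and −0.268 across genes above the background level, which are not independent). Crossed pairs, chosen after seeing the data, gave 375 and 381 genes and 0 members.

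Signs of member differences turned in several settings. Of the values that follow, MYEOV passed an unadjusted p below 0.05 at −0.59 and at 1.26, and with an array left out no member passed an adjusted one. Averaging a gene's rows, MYEOV had −0.13 and LTO1 −0.062, and with their other row, an alternative chosen after seeing the data, they had −0.59 and −0.21. With 1 array left out, which leaves 1 residual degree of freedom and assumes that the lone array varies like the other pair, the log2 fold change ranged from −0.61 to 1.26 for MYEOV, −0.021 to 0.19 for LTO1, −0.27 to 0.15 for FGF19, −0.35 to 0.18 for FGF4, −0.33 to 0.081 for FGF3, −0.078 to 0.15 for ANO1, −0.51 to 0.059 for FADD, −0.14 to 0.022 for PPFIA1 and −0.25 to 0.057 for CTTN. CCND1 kept its positive sign under every alternative, from 0.094 to 0.45, and passed in none. The cause was not tested.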
